A study of Mus musculus with 9 samples.

Results

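The comparison described here set the liver transcriptome of rats that were given schisandrin B during carbon tetrachloride (CCl4) exposure against that of rats that were given neither. It used 6 of the 9 RNA-seq libraries of the study, 3 libraries labelled as schisandrin B and 3 labelled as normal, and every gene with enough counts, 14581 of the 37203 rows of the count table. The labels describe male Wistar rats of 180 ± 20 g in 4 groups of 8. CCl4, as a 50% solution in olive oil, was given by gavage at 2 mL/kg, 3 times a week for 8 weeks, and the normal group received olive oil. In the schisandrin B group the compound was added daily for the last 4 of the 8 weeks, so that group carries both CCl4 and schisandrin B. The study used 25 and 50 mg/kg of schisandrin B, and the labels do not say which dose the 3 sequenced libraries had. Another 3 libraries, labelled fibrosis, had CCl4 without the compound. They share the estimate of the spread in the fit and their values are set beside those of the 2 groups compared. The labels do not say that each library came from its own animal, so p-values measure the spread between libraries.

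CCl4 is turned into a reactive radical by cytochrome P450 2E1 in the hepatocytes around the central vein, and repeated dosing kills these cells and leads to scarring by activated stellate cells. Schisandrin B is a lignan of the fruit of Schisandra chinensis, known for activating the Nrf2 antioxidant pathway and for acting on drug-metabolising enzymes. No group analysed here had schisandrin B alone, so the 2 agents cannot be told apart in this comparison. The rat liver is also strongly sex-dimorphic: the male pattern of pulsed growth hormone release, acting through STAT5b, turns one set of P450, sulfotransferase and urinary protein genes on and another set off.

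The libraries held between 10320299 and 16255167 counts. Levels are given as CPM (a gene's share of the library's counts, scaled to a common library size) after scaling by the trimmed mean of M-values (TMM), with 1 value per library in the order of replicates 1, 2 and 3. On log2 levels across genes, the mean Pearson correlation was 0.972 between normal libraries, 0.974 between schisandrin B libraries and 0.914 between a normal and a schisandrin B library. Albumin transcripts made up 13.9 to 17.1% of the counts of normal and 13.1 to 14.3% of those of schisandrin B libraries. The libraries labelled normal did not match their label in 1 respect: the Y-linked genes Kdm5d and Eif2s3y had 0 counts in all 3 of them and were present in all 6 libraries with CCl4. All 3 normal libraries behaved this way, so none could be left out as the exception, and for every result below the sex of the animals and the treatment cannot be told apart.

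A gene is called changed where edgeR's quasi-likelihood test, fitted on all 9 libraries, gave a Benjamini-Hochberg adjusted p under 0.05. Schisandrin B libraries differed from normal libraries in 1531 of the 14581 genes (10.5%), with 766 higher (5.25%) and 765 lower (5.25%). A change of at least 2-fold was part of 1014 of these calls (6.95%). The 3 levels of one group all lay beyond the 3 of the other in 5637 genes (38.7%), higher with schisandrin B in 2900 (19.9%) and lower in 2737 (18.8%). By the same rule the fit called 6895 genes (47.3%) between schisandrin B and fibrosis libraries and 7041 (48.3%) between fibrosis and normal libraries, comparisons that share these libraries and are used here only beside single genes. The number of calls depended on which libraries set the spread: a fit on the 6 libraries alone called 2951 genes (21.1% of 14002), among them 1484 of the 1531. Leaving out fibrosis replicate 1 gave 2814 calls. Without normal replicate 1, 2 or 3 there were 931, 1004 and 773 calls, and without schisandrin B replicate 1, 2 or 3 there were 874, 777 and 702. With library totals in place of TMM the median log2 change of all genes moved to 0.16, and 1231 genes were called higher and 519 lower. Every named call below held in all of its 18 alternative settings (17 or 16 for genes that some settings left out) unless the settings that ended it are given beside it. Beside such a gene the highest adjusted p over its alternatives is given as well. Most counts of list members carry their lowest and highest value over the alternatives, or their values under single settings. They stand against 5.25% of all genes called in each direction.

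**Figure D1:**
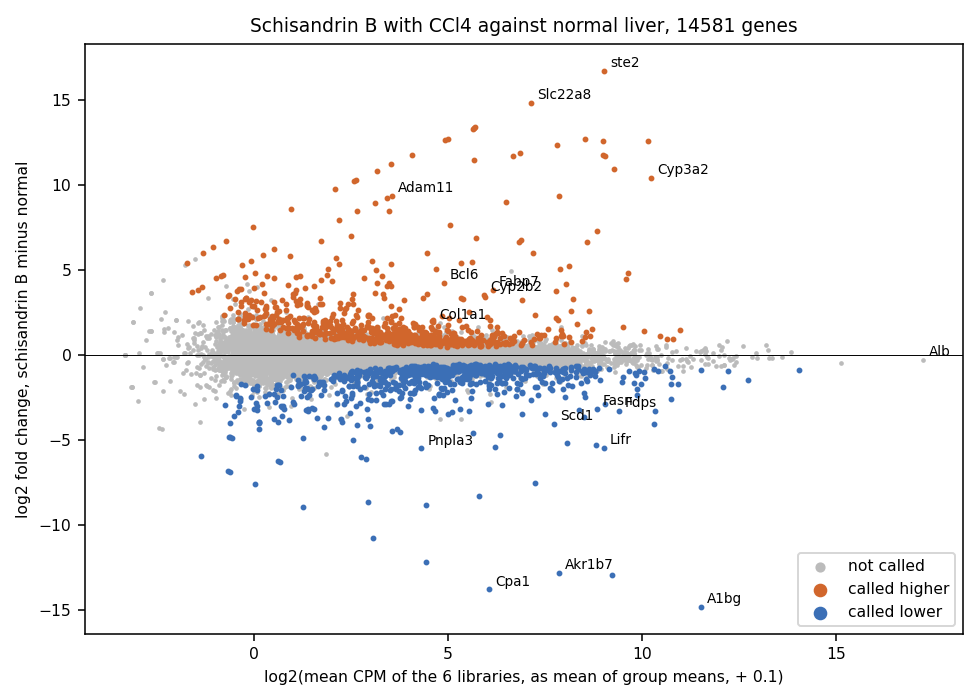
Change of each gene between schisandrin B and normal libraries (vertical axis, log2 fold change) against its mean level in the 2 groups (horizontal axis, log2 of CPM + 0.1), 1 point per gene, 14581 genes, with the 766 genes called higher in orange and the 765 called lower in blue. The named genes include ste2 and Slc22a8 among the largest rises, A1bg, Cpa1 and Akr1b7 among the largest falls, and albumin (Alb) as the most counted gene.

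Sex-dimorphic liver genes showed the largest differences. All 13 tested genes of a list of male-biased rat liver genes rose, and all 12 of a list of female-biased genes fell. Of all genes 5.25% did so in each direction. Over the alternatives the male-biased calls stayed at 13, and the female-biased calls lay between 11 and 12. The groups did not overlap in any of the 25, where 19.9% of all genes were higher and 18.8% lower without overlap. The median changes were 7.30 and -3.73 on the log2 scale, against 0.00384 over all genes tested. Leaving these lists and the Y-linked genes out of the count left 1504 calls, 751 higher and 753 lower. The lists are short, and sex-biased genes outside them, such as Bcl6 below, stayed in this count. The summed level of the male-biased genes was 1143 to 1308 CPM in normal and 9723 to 14630 CPM in schisandrin B libraries. That of the female-biased genes was 18370 to 31010 and 2965 to 3770 CPM.

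Among Y-linked genes, Kdm5d, a histone demethylase, stood at 12.6, 13.3 and 10.96 CPM with schisandrin B and 5.91, 7.57 and 10.6 CPM in fibrosis libraries, and at 0 in every normal library. Against the limit that a count of 0 allows (3 counts per library), it was at least 52.4-fold higher with schisandrin B than in normal libraries, and Eif2s3y, a translation initiation factor subunit, at least 50.5-fold. The row named Ddx3y, a Y-linked RNA helicase, was low in all groups, with 1.03, 0.813 and 2.59 CPM in normal and 1.53, 0.510 and 0.548 CPM in schisandrin B libraries.

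Cyp3a2, a male-specific steroid 6-beta-hydroxylase, stood at 0.945, 1.08 and 3.24 CPM in normal and 1775, 2635 and 2864 CPM in schisandrin B libraries. Every schisandrin B library was higher than every other library, and the gene rose by 10.43 ± 0.58 on the log2 scale (edgeR adjusted p 2.32e-06). Against the fibrosis libraries, at 479, 371 and 238 CPM, it was higher as well (log2 change 2.74, edgeR adjusted p 0.000301). Cyp2c11, the main male-specific P450 of rat liver, rose from 0.669 ± 0.337 to 464 ± 194 CPM (SD, n = 3 each), a level that overlapped with fibrosis libraries (edgeR adjusted p 0.918 between these). Cyp2c13 and Cyp2a2 followed with rises of 7.30 ± 0.38 and 5.26 ± 0.28. The urinary protein genes Mup5 and Mup4 and the related Obp3, carriers of small odorants, were near or at 0 in normal libraries: Mup5 rose from 0.275 to 1059 CPM, Mup4 was at least 261-fold and Obp3 at least 144-fold higher. Hsd3b5, a male-specific 3-ketosteroid reductase of rodent liver, was at least 274-fold higher. Outside the list, ste2, an estrogen sulfotransferase, had 0 counts in normal libraries and 888, 1261 and 1004 CPM with schisandrin B, at least 4480-fold higher, where the fibrosis libraries held 61.3, 89.2 and 13.7 CPM. Slc22a8, an organic anion transporter, was at least 1203-fold higher, with 255, 312 and 279 CPM, and the pseudogene Cyp3a85-ps at least 424-fold.

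In the other direction A1bg, a secreted plasma glycoprotein, was among the most abundant female-biased transcripts with 8747, 3047 and 5915 CPM in normal libraries, and fell to 0.191, 0.292 and 0.0913 CPM with schisandrin B. Akr1b7, an aldo-keto reductase, had 2 counts left over the 3 schisandrin B libraries, and normal libraries stood higher by a ratio of 8061 (95% counting interval 2231 to 66570). Sult2a2, a hydroxysteroid sulfotransferase, fell from 301 ± 47.8 to 1.65 ± 0.788 CPM, and Cyp2c12, the female-specific counterpart of Cyp2c11, fell by 3.30 ± 0.29. Both stood above the fibrosis libraries (log2 changes 3.07 and 1.81, edgeR adjusted p 0.000227 and 0.000267). Cux2, a homeobox repressor that is specific to female liver, fell from 144 ± 23.8 to 3.36 ± 2.12 CPM. The prolactin receptor Prlr fell from 527 ± 150.5 to 14.9 ± 7.03 CPM. The Prlr call ended without normal replicate 3 or schisandrin B replicates 1, 2 or 3, or with no filter on low counts (highest adjusted p 0.0809). Cyp3a, Cyp2c, Mup and Sult2a genes have near-identical copies, and how the counting divided shared reads is not stated, so the split within these families is uncertain.

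**Figure D2:**
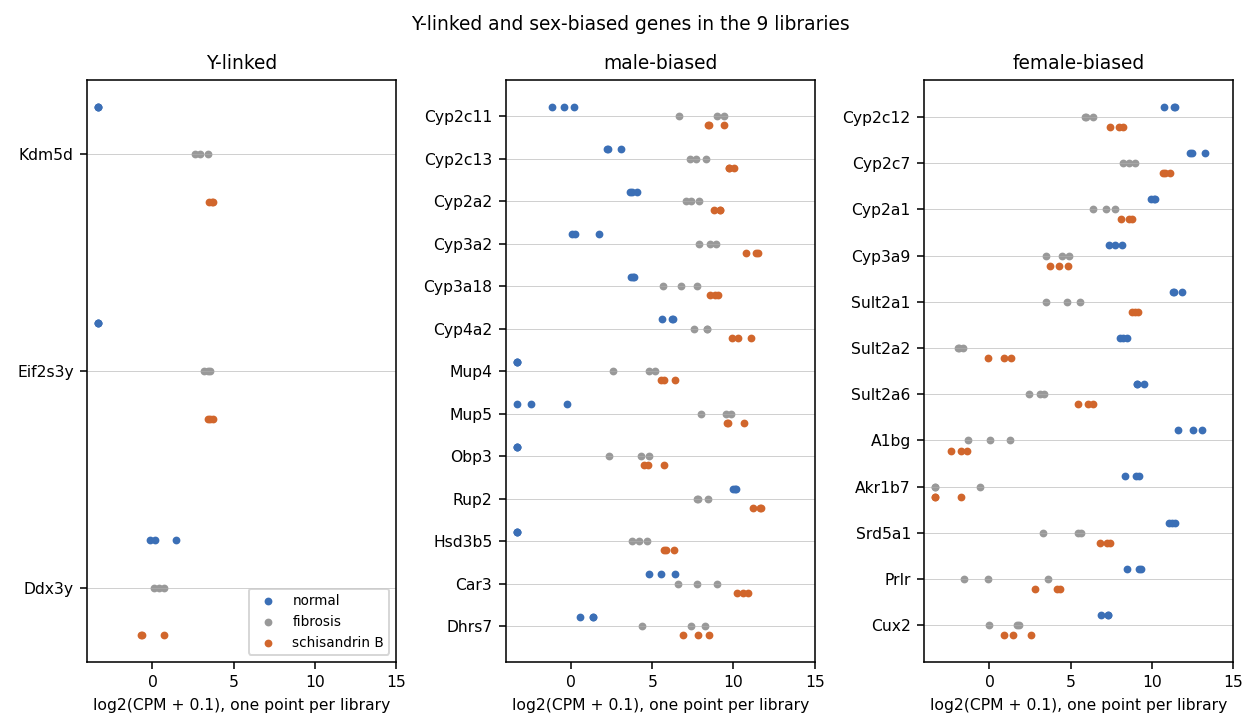
Levels of Y-linked, male-biased and female-biased rat liver genes in the 9 libraries (horizontal axes, log2 of CPM + 0.1, 1 point per library, blue for normal, grey for fibrosis and orange for schisandrin B). Kdm5d and Eif2s3y lie at the left limit in all 3 normal libraries, and in each of the 13 male-biased and 12 female-biased genes the normal and schisandrin B points do not overlap.

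Beyond these lists, several of the largest changes were in regulators and receptors. Bcl6, a transcriptional repressor that is itself known to be higher in male rodent liver, stood at 4.55, 1.96 and 2.35 CPM in normal, 3.56, 5.60 and 3.76 in fibrosis and 46.9, 71.9 and 51.8 CPM in schisandrin B libraries. The 3 schisandrin B libraries were above all others, and Bcl6 rose by 4.28 ± 0.33 against normal (95% interval 3.55 to 5.01, edgeR adjusted p 2.09e-05) and by 3.72 against fibrosis libraries (edgeR adjusted p 9.89e-06). The leukemia inhibitory factor receptor Lifr went the other way, from 1466, 533 and 1072 CPM to 23.3, 24.9 and 21.3 CPM, and fell by 5.47 ± 0.44. Osmr, the oncostatin M receptor and like Lifr a partner of gp130, fell from 35.8 ± 11.4 to 3.83 ± 1.27 CPM, below both other groups (fibrosis 53.03, 58.6 and 76.99 CPM). Of 17 genes of growth hormone and IGF signalling Bcl6 rose and Socs2 fell (alternatives 1 to 2 higher, 0 to 3 lower, against 5.25% of all genes in each direction), the latter from 16.4 ± 9.82 to 4.85 ± 0.592 CPM. Socs2, a STAT5-induced feedback inhibitor, was no longer called without normal replicates 2 or 3 or schisandrin B replicates 1, 2 or 3, or with limma voom (highest adjusted p 0.0885). The growth hormone receptor Ghr was at 547, 441 and 396 CPM in normal and 246, 294 and 261 CPM in schisandrin B libraries without a call (edgeR adjusted p 0.0802), and was called lower without fibrosis replicates 1 or 3, or with no filter on low counts or DESeq2 or the fit on 6 libraries.

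Some genes set the schisandrin B libraries apart from normal and fibrosis libraries alike, called in the same direction in both comparisons. These comparisons share the schisandrin B libraries. Fabp7, a fatty acid binding protein best known from brain, stood at 6.87, 7.92 and 13.04 CPM in normal, 2.51, 8.78 and 7.05 in fibrosis and 82.8, 135 and 180.0 CPM in schisandrin B libraries (log2 rises of 3.84 and 4.43). The potassium channel Kcnh1 rose from 0.882 ± 0.289 to 17.00 ± 1.41 CPM, and Pcp4l1 from 1.26 ± 0.529 to 16.1 ± 6.87 CPM. Adam11, a member of the ADAM family without protease activity, had 1 count in normal libraries against 22.6, 19.8 and 28.2 CPM, a ratio of 901 (95% counting interval 161 to 35640). Hao2, a peroxisomal hydroxy acid oxidase, rose from 27.4 ± 7.69 to 502 ± 67.2 CPM, and Inmt, a methyltransferase of indole amines, from 1.47 ± 0.998 to 50.1 ± 27.9 CPM. Acnat2, which conjugates fatty acids to amino acids in peroxisomes, varied between the schisandrin B libraries, with 66.5, 311 and 294 CPM against 3.52, 1.08 and 2.02 CPM in normal libraries. Crym, a thyroid hormone binding protein, rose by 3.61 ± 0.58, Hsd3b by 6.71 ± 0.62 and Fam89a by 4.65 ± 0.62.

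Falls below both other groups included Cemip, a hyaluronan-degrading protein, which stood at 19.6, 20.5 and 21.1 CPM in normal and 4.20, 2.70 and 2.74 CPM in schisandrin B libraries. Prkcdbp, a caveola protein, fell from 183 ± 38.5 to 35.2 ± 8.66 CPM, and Tmod1, an actin filament cap, fell by 3.67 ± 0.60. Tmem30b, a subunit of lipid flippases, fell by 2.56 ± 0.39, and the epithelial transcription factor Elf3 fell by 2.36 ± 0.41. Gdf15, a stress-induced cytokine, was at 12.03, 13.1 and 30.4 CPM in normal and 3.15, 3.35 and 1.10 CPM in schisandrin B libraries, with no overlap. It fell by 2.85 ± 0.67. The Gdf15 call ended without normal replicate 3 or schisandrin B replicates 1, 2 or 3, or with no filter on low counts or limma voom (highest adjusted p 0.105).

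Genes of cholesterol synthesis were lower with schisandrin B. Of 25 tested 19 fell and 0 rose, where 5.25% of all genes tested were called lower, and all 25 had a lower mean than in normal libraries. The groups did not overlap in 24 of the 25, all lower, where 18.8% of all genes were lower without overlap. The median change was -1.69 on the log2 scale. The summed level of the list was 6169 to 7839 CPM in normal, 2240 to 6354 CPM in fibrosis and 1963 to 2244 CPM in schisandrin B libraries. With each library left out in turn 15 to 22 members were called lower, with library totals 17, and in the fit on 6 libraries 24, each time with 0 higher.

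Fdps, which makes farnesyl diphosphate, the branch point to sterols and prenyl groups, stood at 1342, 1076 and 1287 CPM in normal, 570.4, 493 and 507 in fibrosis and 111, 124 and 149 CPM in schisandrin B libraries. It fell by 3.27 ± 0.21 against normal (edgeR adjusted p 4.97e-06) and by a log2 change of -2.03 against fibrosis libraries. Sqle, squalene epoxidase, fell from 81.95 ± 9.60 to 14.5 ± 4.28 CPM. Cyp51, lanosterol demethylase, fell from 633 ± 62.8 to 116 ± 37.7 CPM. Mvd, the last enzyme of the mevalonate arm, fell by 2.26 ± 0.21, and Lss, which closes the sterol ring, fell by 1.98 ± 0.19. The master regulator Srebf2 stood at 67.8, 94.2 and 108 CPM in normal and 63.7, 57.9 and 52.3 CPM in schisandrin B libraries. Its groups did not overlap, and it was not called (edgeR adjusted p 0.0670), but was called lower without normal replicate 1 or fibrosis replicate 1, or with DESeq2 or the fit on 6 libraries. Srebf2 was named after its values were seen.

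Genes of fatty acid synthesis were lower as well. Of 20 genes tested 16 fell and 0 rose, against 5.25% of all genes in each direction, with a median change of -1.77. The summed level was 8113 to 11680 CPM in normal and 2863 to 3234 CPM in schisandrin B libraries, with fibrosis libraries between at 4051 to 5200 CPM. Leaving out single libraries gave 9 to 16 calls lower, library totals 15 and the fit on 6 libraries 13.

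Acly, which supplies cytosolic acetyl-CoA from citrate, stood at 552, 1297 and 962 CPM in normal and 172, 117 and 95.3 CPM in schisandrin B libraries, and fell by 2.87 ± 0.34 (edgeR adjusted p 0.000407). Fasn, fatty acid synthase, fell from 822 ± 331 to 93.1 ± 25.5 CPM, and Acaca, acetyl-CoA carboxylase, named after its values were seen, from 175 ± 47.8 to 43.9 ± 11.4 CPM. Both Acly and Fasn were also lower than in fibrosis libraries (log2 changes -2.79 and -3.42, edgeR adjusted p 6.79e-05 and 6.21e-05), which did not differ by a call from normal in these genes. Acacb, the mitochondrial carboxylase whose product restrains fatty acid oxidation, and Fads1, a desaturase of polyunsaturated fatty acids, had another order: their log2 changes were -2.46 ± 0.23 and -2.31 ± 0.29 against normal and 2.08 and 2.15 against fibrosis libraries, all called. Acss2, acetyl-CoA synthetase, fell by 2.65 ± 0.21. Pnpla3, a lipid droplet protein, stood at 25.1, 56.8 and 34.5 CPM in normal and 0.956, 0.583 and 1.10 CPM in schisandrin B libraries, and fell by 5.48 ± 0.63. The stearoyl-CoA desaturase Scd1 varied widely among normal libraries, with 96.1, 738 and 377 CPM against 16.6, 45.9 and 10.4 CPM. It fell by 4.05 ± 0.78, a change that was not called without schisandrin B replicate 1, or with no filter on low counts or the fit on 6 libraries (highest adjusted p 0.0672), and reads shared with the paralog Scd make its level uncertain. Srebf1, the regulator of this pathway, was at 214, 306 and 358 CPM in normal and 323, 131 and 95.9 CPM in schisandrin B libraries, where replicate 1 lay within the normal range (edgeR adjusted p 0.493, named after its values were seen).

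Of 25 genes of gluconeogenesis, glycolysis and glycogen 3 fell and 0 rose, where 5.25% of all genes tested were called in each direction. Over the alternatives the calls lay between 0 and 2 higher and between 1 and 4 lower, with 2 higher and 4 lower in the fit on 6 libraries, 1 higher and 4 lower without fibrosis replicate 1, and 1 lower without schisandrin B replicate 3. The 3 genes act in glycolysis: Aldoa fell from 118 ± 8.56 to 58.6 ± 4.36 CPM, Eno1 fell by 0.82 ± 0.16 and the liver pyruvate kinase Pklr fell by 1.26 ± 0.32. The Eno1 call ended without schisandrin B replicate 3 (highest adjusted p 0.0557), the Pklr call without normal replicates 2 or 3 or schisandrin B replicates 2 or 3, or with library totals (highest adjusted p 0.128). Markers of hepatocytes, the cells that carry these pathways, summed to 251400 to 288200 CPM in normal and 218800 to 243200 CPM in schisandrin B libraries, and their part in these results was not tested.

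**Figure D3:**
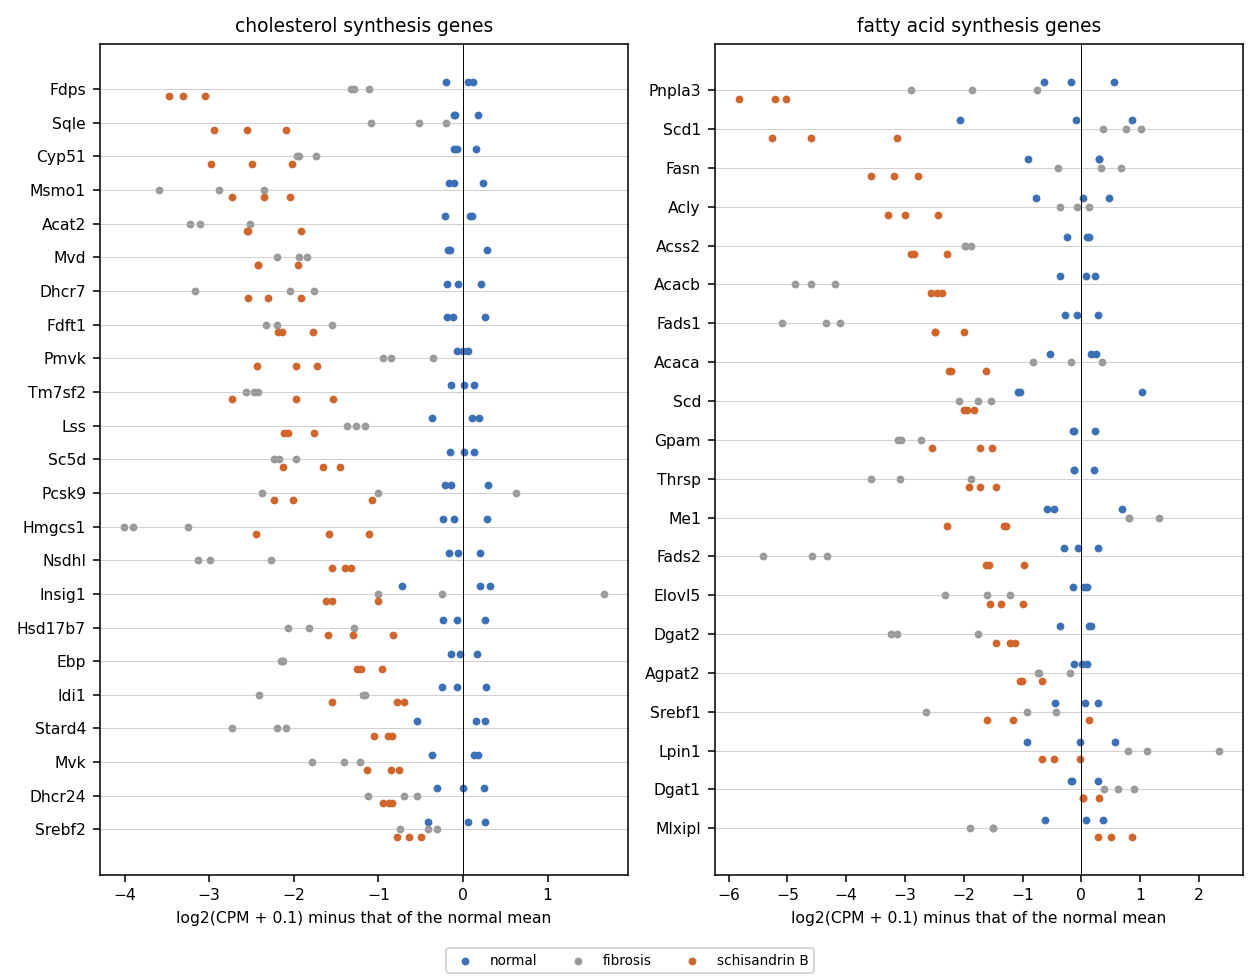
Level of 23 of the 25 cholesterol synthesis genes (left) and each fatty acid synthesis gene (right, 20 genes) in the 9 libraries relative to the mean of the normal libraries (horizontal axes, log2 of CPM + 0.1 minus that of the normal mean, 1 point per library, genes ordered by their change). In the cholesterol genes shown and in 16 of the 20 fatty acid genes all schisandrin B points lie to the left of all normal points. Of all genes 18.8% were lower without overlap.

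Genes of fatty acid oxidation were mostly without calls. Of 33 tested 3 rose and 0 fell (alternatives 2 to 11 higher, 0 to 1 lower, against 5.25% of all genes in each direction), with a median of 0.23, and 25 of the 33 had a higher mean than in normal libraries. With library totals 9 rose, and in the fit on 6 libraries 11 rose and 1 fell. Ech1, which handles double bonds during beta-oxidation, stood at 171, 107 and 141 CPM in normal and 391, 563 and 555 CPM in schisandrin B libraries, a rise of 1.85 ± 0.25. Vnn1, a pantetheinase that returns the vitamin precursor of coenzyme A and a known target of the fatty acid sensor PPAR-alpha, rose from 7.09 ± 3.57 to 73.8 ± 27.6 CPM, above both other groups. Cyp4a1, an omega-hydroxylase of fatty acids with close paralogs, rose by 0.80 ± 0.21. The Cyp4a1 call ended without normal replicates 2 or 3 or schisandrin B replicates 1, 2 or 3 (highest adjusted p 0.136). Cpt1a, the gate of mitochondrial fatty acid entry, stood at 588, 505 and 871 CPM in normal and 564, 606 and 792 CPM in schisandrin B libraries (log2 change 0.00 ± 0.36, of either sign over the alternatives, edgeR adjusted p 0.999, named after its values were seen).

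Bile acid genes and amino acid genes were mostly without calls. Of 24 bile acid genes 2 rose and 2 fell (alternatives 1 to 5 higher, 0 to 3 lower, against 5.25% of all genes in each direction), with a median of 0.17. Akr1d1, the steroid 5-beta-reductase that shapes the bile acid ring system, stood at 376, 345 and 315 CPM in normal and 1133, 1340 and 856 CPM in schisandrin B libraries and rose by 1.68 ± 0.28. Cyp7a1, the rate-limiting enzyme, was at 103, 366 and 116 CPM in normal, 3.97, 1.51 and 6.28 in fibrosis and 206, 349.7 and 289.8 CPM in schisandrin B libraries, and its change against normal of 0.53 ± 0.54 was not called (95% interval -0.67 to 1.73, edgeR adjusted p 0.585). The uptake carrier Slco1a1 rose by 0.75 ± 0.20, the canalicular exporter Abcc2 fell by 1.13 ± 0.29 and the FGF co-receptor Klb fell by 1.25 ± 0.31. The call of Slco1a1 ended without normal replicates 1 or 3 or schisandrin B replicates 1, 2 or 3, that of Abcc2 without normal replicates 2 or 3 or schisandrin B replicates 1, 2 or 3, and that of Klb without normal replicates 1, 2 or 3 or schisandrin B replicates 1 or 3 (highest adjusted p 0.134, 0.123 and 0.102). Of 37 urea cycle and amino acid genes 3 rose and 0 fell, against the same 5.25%. The fit on 6 libraries called 6 higher and 2 lower and DESeq2 3 and 2, and without normal replicate 1 or 3 or schisandrin B replicate 1 or 3 there were 0 calls. Sds, serine dehydratase, had 67.6, 173 and 89.2 CPM in normal and 779, 494 and 773 CPM in schisandrin B libraries, Tat, tyrosine aminotransferase, 1099, 1315 and 1225 and 2716, 1859 and 2540 CPM, and Got1, aspartate aminotransferase, 99.8, 231 and 118 and 341, 261 and 389 CPM. In each of these the groups did not overlap, but the Sds call ended without normal replicates 1 or 3 or schisandrin B replicates 1 or 3, or with no filter on low counts, the Tat call without normal replicates 1, 2 or 3 or schisandrin B replicates 1 or 3 and the Got1 call without normal replicates 1 or 3 or schisandrin B replicates 1 or 3 (highest adjusted p 0.0995, 0.108 and 0.130).

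Drug-metabolising genes did not move as a block. Of 25 targets of the xenobiotic receptors PXR and CAR 4 rose and 3 fell (alternatives 2 to 7 higher, 2 to 3 lower, against 5.25% of all genes in each direction), with a median of 0.24. In the fit on 6 libraries 7 rose and 3 fell. Nr1i3, the gene of CAR itself, rose from 7.62 ± 5.10 to 75.6 ± 30.8 CPM, also above fibrosis libraries at 5.02, 6.21 and 1.70 CPM. Cyp2b2 stood at 8.85, 5.35 and 14.5 CPM in normal and 61.3, 178 and 99.2 CPM in schisandrin B libraries, a rise of 3.56 ± 0.58, and its near-identical copy Cyp2b1 at 0.687, 0.610 and 2.67 and 10.1, 30.1 and 25.2 CPM, a rise of 4.05 ± 0.83. Reads of this pair of classical phenobarbital-inducible genes are hard to assign, and the Cyp2b1 call ended without normal replicates 1 or 2, or with no filter on low counts (highest adjusted p 0.0693). Ugt1a1, the bilirubin glucuronosyltransferase, rose by 1.03 ± 0.23 until a library was left out (without normal replicates 1 or 2 or schisandrin B replicates 2 or 3; highest adjusted p 0.0858). Ugt1a1 and Cyp3a23, a PXR target outside the list with 111, 109 and 87.4 CPM in normal and 227, 260.4 and 228 CPM in schisandrin B libraries, were named after their values were seen. Cyp3a23 rose by 1.21 ± 0.29. The Cyp3a23 call ended without normal replicates 1, 2 or 3 or schisandrin B replicates 1, 2 or 3 (highest adjusted p 0.0977). Among the falls were the carboxylesterase Ces2a, from 681 ± 86.8 to 54.1 ± 14.04 CPM, and Cyp3a9, which fell by 3.43 ± 0.41 and is also on the female-biased list. Of 6 tested targets of the aryl hydrocarbon receptor edgeR called 0 and limma voom 0, DESeq2 called 1 lower, and 1 had an unadjusted edgeR p under 0.05. Cyp1a1 stood at 7.13, 4.74 and 7.85 CPM in normal and 5.73, 1.31 and 3.20 CPM in schisandrin B libraries, and Cyp1a2 at 1458, 1590 and 1802 and 909.8, 750.0 and 1057 CPM (edgeR adjusted p 0.307 and 0.392). Cyp1a2 did not overlap between the groups and was called lower without fibrosis replicate 3, or with the fit on 6 libraries.

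Targets of Nrf2, the antioxidant regulator that schisandrin B is known to act on, were mostly without calls. Of 32 tested 1 rose and 5 fell (alternatives 1 to 6 higher, 2 to 9 lower, against 5.25% of all genes in each direction). The median was 0.09, and -0.10 to 0.24 over the alternatives. In the fit on 6 libraries 6 rose and 9 fell. Nfe2l2, the gene of Nrf2, was at 75.8, 82.97 and 82.7 CPM in normal and 80.6, 85.3 and 67.01 CPM in schisandrin B libraries (log2 change -0.05 ± 0.18, of either sign over the alternatives, 95% interval -0.44 to 0.34, edgeR adjusted p 0.894). Nqo1, a quinone reductase and classical target, stood at 26.3, 16.7 and 31.9 CPM in normal, 87.8, 25.7 and 58.1 in fibrosis and 14.2, 6.20 and 4.56 CPM in schisandrin B libraries, where every library was below the normal range. Its change against normal was -1.59 ± 0.51 (95% interval -2.73 to -0.45, edgeR adjusted p 0.0777) and was not called, but was called without fibrosis replicate 2 or schisandrin B replicate 1, or with DESeq2. The heme oxygenase Hmox1 was at 73.9, 63.4 and 54.2 CPM in normal and 44.9, 36.7 and 40.5 CPM in schisandrin B libraries (edgeR adjusted p 0.634), while fibrosis replicate 1 reached far above the others with 1530, 182 and 168 CPM. Hmox1 was called lower without fibrosis replicate 1, or with the fit on 6 libraries. The member that rose was Gstm3, a glutathione transferase, from 1.29 ± 0.671 to 8.87 ± 1.83 CPM, still below fibrosis libraries at 68.3, 48.6 and 82.4 CPM. Among those that fell were Tkt and Me1, which supply sugar phosphates and NADPH, and the glutathione transferases Gsta3 and Gsta4. The transketolase Tkt fell by 0.97 ± 0.22, malic enzyme Me1 fell by 1.56 ± 0.37 and Gsta3 fell by 2.36 ± 0.50. The Tkt call ended without normal replicates 2 or 3 or schisandrin B replicates 2 or 3, the Me1 call without normal replicate 2 or schisandrin B replicates 1, 2 or 3, or with no filter on low counts or the fit on 6 libraries and the Gsta3 call without normal replicate 3 or schisandrin B replicate 2, or with no filter on low counts (highest adjusted p 0.0816, 0.0795 and 0.0715). Gsta4 fell by 0.67 ± 0.17. The Gsta4 call ended without normal replicates 1 or 3 or schisandrin B replicates 1 or 3, or with library totals (highest adjusted p 0.120). Me1 and Gsta4 were named after their values were seen.

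Genes of the pericentral zone, which CCl4 injures first, were mostly without calls against normal libraries. Of 19 tested 3 rose and 0 fell (alternatives 3 to 5 higher, 0 to 2 lower, against 5.25% of all genes in each direction), with a median of 0.33. The 3 were Nr1i3, the male-specific Cyp2c11 and Rhbg, an ammonium transporter, which rose from 11.7 ± 4.33 to 53.7 ± 10.2 CPM. The list summed to 10610 to 11010 CPM in normal and to less, 8477 to 9885 CPM, in schisandrin B libraries. In fibrosis libraries the sum was 3107 to 4251 CPM. The most counted member in normal and schisandrin B libraries was Cyp2e1. Cyp2e1, the enzyme that activates CCl4, stood at 6405, 4449 and 5339 CPM in normal, 429.6, 1013 and 600.3 in fibrosis and 3557, 3234 and 3918 CPM in schisandrin B libraries. All 3 schisandrin B levels lay below the normal and above the fibrosis levels. Its change against normal of -0.60 ± 0.30 (95% interval -1.25 to 0.05, edgeR adjusted p 0.226) was not called on 9 libraries and was called on 6. Of 18 periportal genes (alternatives 0 to 3 higher, 0 to 2 lower, against the same 5.25%) Sds and Tat rose and the cadherin Cdh1 fell, from 257 ± 40.7 to 85.8 ± 12.8 CPM. The Cdh1 call ended without normal replicates 1, 2 or 3 or schisandrin B replicates 1, 2 or 3, or with no filter on low counts (highest adjusted p 0.131).

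**Figure D4:**
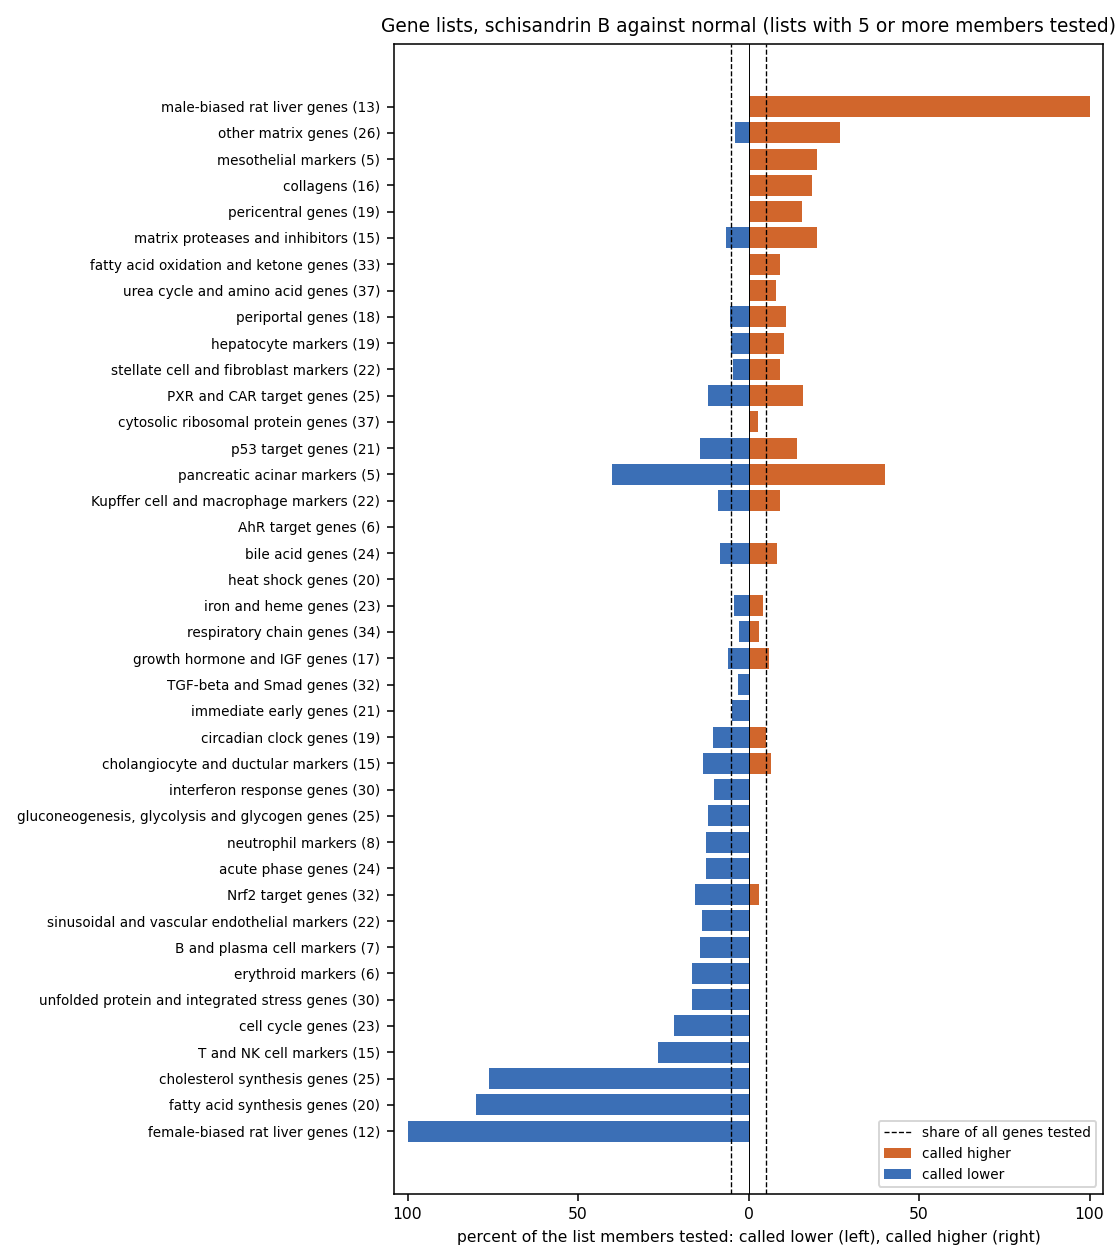
Share of the tested members of each gene list that was called lower (bars to the left, blue) and higher (bars to the right, orange) with schisandrin B than in normal libraries, for lists with at least 5 members tested, with the number tested in parentheses. The dashed lines mark 5.25%, the share of all genes called higher and called lower, and the cholesterol synthesis (19 of 25 lower) and fatty acid synthesis lists (16 of 20 lower) extend far beyond it.

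The collagen genes that were called were higher than in normal libraries, with calls that depended on single libraries. Of 16 collagen genes tested 3 rose and 0 fell, where 5.25% of all genes tested were called in each direction, with a median of 0.68. The groups did not overlap in 9, all higher, where 19.9% of all genes were higher without overlap. Library totals gave 5 rises and the fit on 6 libraries 7. Leaving out single libraries gave between 0 and 6 rises, with 0 without normal replicate 1 or 3 or schisandrin B replicate 1. Col1a1, the main chain of scar collagen, stood at 7.64, 11.6 and 11.4 CPM in normal, 10.04, 8.17 and 21.5 in fibrosis and 64.4, 25.2 and 27.6 CPM in schisandrin B libraries. Replicate 1 of schisandrin B was the highest, and all 3 were above every other library. Col1a1 rose by 1.93 ± 0.45 (95% interval 0.93 to 2.93, edgeR adjusted p 0.0235). The Col1a1 call ended without normal replicates 1, 2 or 3 or schisandrin B replicate 1, or with no filter on low counts (highest adjusted p 0.0846). Col5a2 rose by 1.09 ± 0.25 and Col6a2 by 0.86 ± 0.25. The first was not called without normal replicates 1 or 3 or schisandrin B replicates 1 or 3, the second without normal replicates 1, 2 or 3 or schisandrin B replicates 1, 2 or 3, or with upper-quartile factors or a minimum mean of 5 CPM or limma voom (highest adjusted p 0.0836 and 0.164). Col3a1, with 152, 255 and 199 CPM in normal and 423, 330.1 and 339 CPM in schisandrin B libraries, and Col1a2, with 15.5, 26.96 and 7.21 and 51.03, 33.98 and 32.96 CPM, did not overlap between the groups either, without a call (edgeR adjusted p 0.0687 and 0.0680). Col3a1 was called without fibrosis replicates 1, 2 or 3, or with DESeq2 or the fit on 6 libraries, and Col1a2 without normal replicate 2, or with DESeq2 or limma voom.

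Of 15 matrix proteases and inhibitors that passed the filter, out of 21, 3 rose and 1 fell (alternatives 1 to 5 higher, 1 to 3 lower, against 5.25% of all genes in each direction). Lox, lysyl oxidase, which cross-links collagen and was counted with the matrix genes below, was low throughout and stood at 0.429, 0.203 and 0.567 CPM in normal and 5.73, 4.16 and 1.10 CPM in schisandrin B libraries, a rise of 3.19 ± 0.61. Mmp2, a gelatinase of stellate cells and fibroblasts, rose from 11.2 ± 1.05 to 36.1 ± 8.99 CPM (edgeR adjusted p 0.00143), and fibrosis libraries were at 21.4, 21.04 and 33.5 CPM. Mmp12, the macrophage elastase, rose by 3.29 ± 0.79. The Mmp12 call ended without normal replicates 2 or 3 or schisandrin B replicates 1 or 3 (highest adjusted p 0.0981). Adamts2, which trims procollagen, rose by 1.29 ± 0.31. The Adamts2 call ended without normal replicates 2 or 3 or schisandrin B replicate 1 (highest adjusted p 0.0890). The protease inhibitor Timp3 fell from 44.5 ± 5.56 to 22.1 ± 2.61 CPM, below both other groups. Timp1, the inhibitor usually raised in fibrosis, was at 5.07, 4.47 and 3.89 CPM in normal, 20.00, 9.38 and 12.2 in fibrosis and 10.4, 5.76 and 8.22 CPM in schisandrin B libraries, with no overlap with normal and no call (edgeR adjusted p 0.113). It was called higher without fibrosis replicate 1, or with the fit on 6 libraries.

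Of 26 other matrix genes 7 rose and 1 fell (alternatives 1 to 8 higher, 0 to 3 lower, against 5.25% of all genes in each direction), with a median of 0.30. The proteoglycan Lum was highest in schisandrin B replicate 1, with 4.11, 0.948 and 0.913 CPM in schisandrin B libraries against 0.429, 0.339 and 0.0810 CPM. The Lum call ended without normal replicates 1, 2 or 3 or schisandrin B replicate 1, or with limma voom (highest adjusted p 0.155). Sparc, a collagen-binding glycoprotein, rose from 158 ± 13.8 to 276 ± 45.6 CPM. The Sparc call ended without normal replicates 1, 2 or 3 or schisandrin B replicates 1 or 3 (highest adjusted p 0.0917). Dcn, decorin, rose by 1.58 ± 0.42. The Dcn call ended without normal replicates 2 or 3 or schisandrin B replicates 1 or 3, or with no filter on low counts or the fit on 6 libraries (highest adjusted p 0.122). The other 4 that rose were Spp1, Lox, Loxl1 and Nid1, Loxl1 and Nid1 being named after their values were seen. The Loxl1 call ended without normal replicates 1 or 3 or schisandrin B replicates 1 or 3 and the Nid1 call without normal replicates 1, 2 or 3 or schisandrin B replicates 1 or 3 (highest adjusted p 0.140 and 0.133). The one that fell was Vim, vimentin, from 58.5 ± 10.3 to 28.8 ± 11.3 CPM. The Vim call ended without normal replicates 1, 2 or 3 or schisandrin B replicates 2 or 3, or with library totals (highest adjusted p 0.137).

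Markers of stellate cells were mostly without calls. Acta2, smooth muscle actin, stood at 6.70, 5.35 and 5.02 CPM in normal, 17.6, 9.31 and 22.7 in fibrosis and 5.35, 4.74 and 3.56 CPM in schisandrin B libraries. Its change against normal was -0.32 ± 0.33 (95% interval -1.04 to 0.40, edgeR adjusted p 0.587). Of 22 stellate cell and fibroblast markers Dcn and Lum rose and Vim fell (alternatives 0 to 3 higher, 0 to 2 lower, against 5.25% of all genes in each direction), with a median of 0.01 (-0.08 to 0.18 over the alternatives) and summed levels of 1102 to 1224 CPM in normal and 1085 to 1119 CPM in schisandrin B libraries. The vitamin A enzyme Lrat, a marker of quiescent stellate cells, was at 10.05, 19.6 and 11.5 CPM in normal, 1.05, 1.14 and 1.53 in fibrosis and 18.3, 16.7 and 20.3 CPM in schisandrin B libraries, and desmin (Des) at 4.90, 3.73 and 5.42, 15.5, 12.9 and 7.93 and 6.21, 3.06 and 4.75 CPM. Fewer cells of a type and less RNA per cell cannot be told apart in such bulk samples, here or for the other cell type markers below. Among 32 genes of TGF-beta and Smad signalling, the pathway that drives stellate cells to make collagen, 0 rose and 1 fell (alternatives 0 higher, 0 to 7 lower, against 5.25% of all genes in each direction). Id2 fell by 1.48 ± 0.31. The Id2 call ended without schisandrin B replicates 2 or 3 (highest adjusted p 0.0593). In the fit on 6 libraries 7 fell, among them Tgfb1, which was at 18.6, 20.6 and 15.5 CPM in normal and 11.6, 9.04 and 8.58 CPM in schisandrin B libraries (edgeR adjusted p 0.0662 on 9 libraries, with a call without fibrosis replicates 1 or 2, or with no filter on low counts or DESeq2 or the fit on 6 libraries). The inhibitor Smad7 was at 11.3, 14.5 and 17.6 and 10.4, 11.2 and 10.1 CPM (edgeR adjusted p 0.206).

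**Figure D5:**
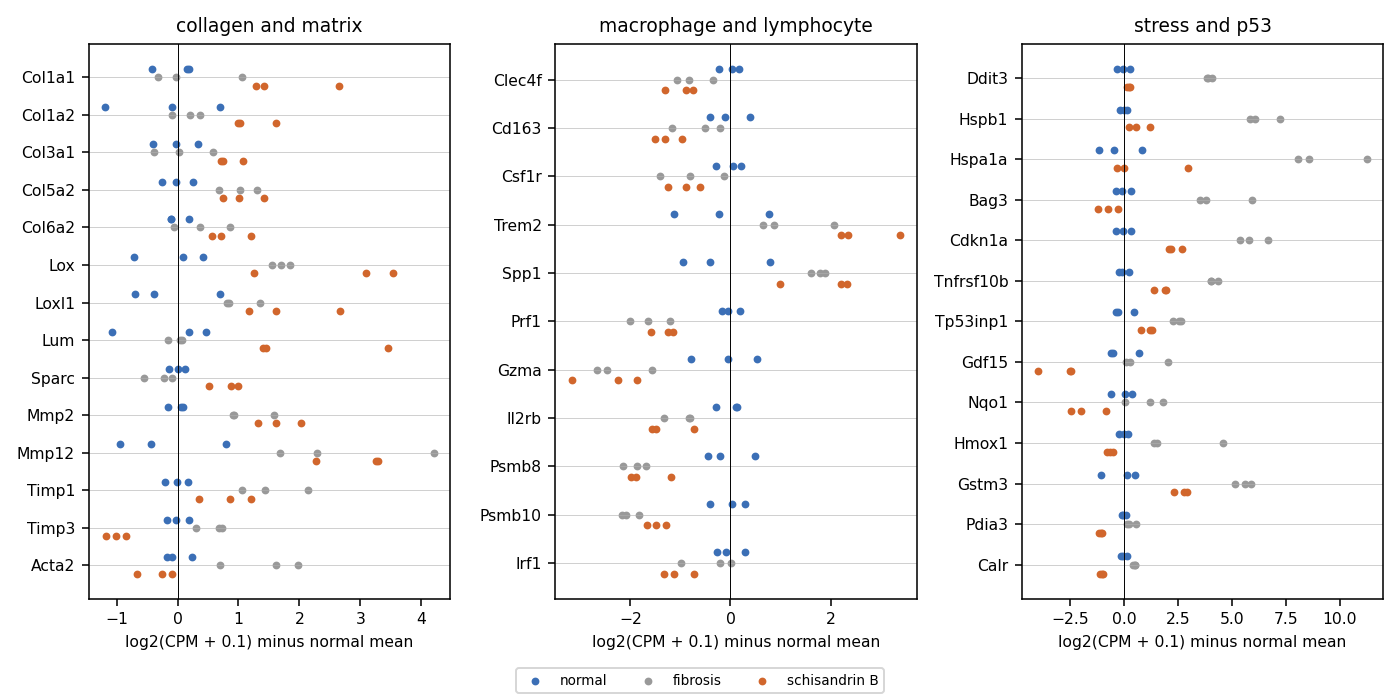
Levels of selected matrix, immune and stress genes in the 9 libraries relative to the mean of the normal libraries (horizontal axes, log2 of CPM + 0.1 minus that of the normal mean, 1 point per library, colours as before). Schisandrin B libraries lie above normal for Col1a1 and Mmp2, below for Timp3, Psmb8 and Pdia3, and in and just above the upper part of the normal range for Ddit3.

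Most stress genes were without calls. Among 30 genes of protein-folding stress in the endoplasmic reticulum (ER) and of the integrated stress response 0 rose and 5 fell, where 5.25% of all genes tested were called in each direction. The fit on 6 libraries called 3 higher and 8 lower, DESeq2 1 and 7, and the edgeR fit without fibrosis replicate 1 called 3 and 7. Without any 1 normal or schisandrin B library 2 or 3 fell. The median was -0.06, and -0.17 to 0.11 over the alternatives. Ddit3, which encodes CHOP and is raised by prolonged stress of the endoplasmic reticulum, stood at 15.03, 12.3 and 10.1 CPM in normal, 215, 189 and 181 in fibrosis and 14.7, 15.4 and 13.97 CPM in schisandrin B libraries, a change against normal of 0.24 ± 0.18 (95% interval -0.16 to 0.63, edgeR adjusted p 0.442). The ER chaperone Calr, calreticulin, fell from 1222 ± 115 to 597 ± 33.6 CPM (edgeR adjusted p 0.00495), and the disulfide isomerase Pdia3 from 489 ± 33.7 to 234 ± 14.1 CPM (edgeR adjusted p 0.00435), both below fibrosis libraries as well. Pdia4 fell by 0.87 ± 0.23, its relative Pdia6 fell by 0.63 ± 0.18 and the serine synthesis enzyme Psat1 fell by 1.19 ± 0.28. The Pdia4 call ended without normal replicates 1, 2 or 3 or schisandrin B replicates 1, 2 or 3, or with library totals, the Pdia6 call without normal replicates 1, 2 or 3 or schisandrin B replicates 1, 2 or 3, or with DESeq2 size factors (RLE) or upper-quartile factors or library totals or no filter on low counts and the Psat1 call without normal replicates 1, 2 or 3 or schisandrin B replicate 3 (highest adjusted p 0.155, 0.169 and 0.0694). Pdia6 was named after its values were seen.

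Of 20 heat shock genes edgeR, DESeq2 and limma voom called 0, 1 had an unadjusted edgeR p under 0.05 and the median was 0.15 (-0.08 to 0.31 over the alternatives). In the fit on 6 libraries and without fibrosis replicate 1, 2 were called higher, and with library totals 1. Hspb1, a small heat shock protein, stood at 12.03, 10.8 and 9.39 CPM in normal, 1617, 734 and 623 in fibrosis and 12.6, 24.6 and 15.6 CPM in schisandrin B libraries (edgeR adjusted p 0.244 against normal). Hspb8 had 71.2, 68.2 and 59.02 CPM in normal and 97.6, 106 and 84.4 CPM in schisandrin B libraries, with no overlap between them (edgeR adjusted p 0.403, and a call without fibrosis replicate 1, or with the fit on 6 libraries). Of 21 immediate early genes Ier3 fell, from 65.9 ± 13.4 to 29.3 ± 5.84 CPM, and 0 rose (alternatives 0 to 1 higher, 0 to 4 lower, against 5.25% of all genes in each direction). The Ier3 call ended without normal replicate 3 or schisandrin B replicates 1 or 3 (highest adjusted p 0.0732).

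Targets of p53, the guard of damaged genomes, split in direction, with 3 of 21 higher and 3 lower (alternatives 2 to 5 higher, 1 to 5 lower, against 5.25% of all genes in each direction). Cdkn1a, the cell cycle inhibitor p21, stood at 0.945, 1.63 and 1.21 CPM in normal, 138, 75.00 and 55.5 in fibrosis and 8.70, 5.98 and 5.75 CPM in schisandrin B libraries, above every normal and below every fibrosis library. It rose by 2.40 ± 0.39 against normal (edgeR adjusted p 0.00340). The death receptor Tnfrsf10b had the same order, with 0.687, 0.610 and 0.891, 13.4, 13.2 and 16.9 and 2.96, 3.14 and 2.10 CPM in normal, fibrosis and schisandrin B libraries. Tp53inp1, an autophagy protein, rose by 1.12 ± 0.24. The Tp53inp1 call ended without normal replicates 1 or 3 or schisandrin B replicates 1 or 2 (highest adjusted p 0.0723). The antioxidant regulator Sesn1 fell from 56.1 ± 12.9 to 21.1 ± 2.88 CPM, as did Gdf15, described above, and the death receptor Fas fell by 1.45 ± 0.40. The Fas call ended without normal replicates 1, 2 or 3 or schisandrin B replicates 1, 2 or 3, or with upper-quartile factors or library totals (highest adjusted p 0.136), and Fas was named after its values were seen.

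Most immune genes were without calls, and those called on the interferon and the T and NK cell lists were lower with schisandrin B. Of 30 interferon response genes 3 fell and 0 rose (alternatives 0 higher, 2 to 8 lower, the latter without schisandrin B replicate 1, against 5.25% of all genes in each direction), 28 had a lower mean, and the median was -0.86. The immunoproteasome subunits Psmb8 and Psmb10, which cut peptides for antigen presentation, both fell. Psmb8 stood at 162, 101 and 85.2 CPM in normal and 50.7, 29.02 and 31.2 CPM in schisandrin B libraries, and Psmb10 fell by 1.48 ± 0.21. The transcription factor Irf1 fell by 1.04 ± 0.26. The Irf1 call ended without normal replicates 1 or 3 or schisandrin B replicates 2 or 3 (highest adjusted p 0.117). Of 15 T and NK cell markers 4 fell and 0 rose (alternatives 0 higher, 1 to 6 lower, against the same 5.25%), and all 15 had a lower mean. Their median was -0.47, with summed levels of 150.1 to 202 CPM in normal and 94.3 to 131 CPM in schisandrin B libraries. Prf1, perforin, stood at 12.03, 9.28 and 10.1 CPM in normal and 4.68, 3.43 and 4.38 CPM in schisandrin B libraries, and fell by 1.33 ± 0.27, which was not called without schisandrin B replicate 2 (adjusted p 0.0583). The granule protease Gzma fell from 4.25 ± 1.88 to 0.766 ± 0.359 CPM. The Gzma call ended without normal replicate 1 or schisandrin B replicates 1 or 3 (highest adjusted p 0.0519). Cd3e, the defining T cell marker, was near the detection limit at 1.72, 1.22 and 1.46 and 0.860, 1.31 and 1.37 CPM (edgeR adjusted p 0.671).

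Of 22 Kupffer cell and macrophage markers 2 rose and 2 fell (alternatives 0 to 3 higher, 0 to 6 lower, against 5.25% of all genes in each direction). Clec4f, the lectin that defines Kupffer cells, stood at 599, 667 and 499.8 CPM in normal and 349, 236 and 317 CPM in schisandrin B libraries, and the scavenger receptor Cd163 at 119, 167 and 96.6 and 65.3, 44.9 and 51.5 CPM. Their log2 changes were -0.97 ± 0.24 and -1.24 ± 0.27, calls that ended without normal replicates 1 or 2 or schisandrin B replicates 1, 2 or 3 for the first and without normal replicate 2 or schisandrin B replicates 2 or 3 for the second (highest adjusted p 0.115 and 0.0738). Trem2, a receptor of scar-associated macrophages, and Spp1, osteopontin, were low: Trem2 stood at 0.0859, 0.271 and 0 and 2.20, 1.02 and 0.913 CPM, Spp1 at 0.687, 0.135 and 0.243 and 2.20, 0.802 and 2.01 CPM, in normal and schisandrin B libraries. Their rises of 3.33 ± 0.81 and 2.23 ± 0.60 were not called without normal replicates 1 or 3 or schisandrin B replicates 1 or 2, and without normal replicates 2 or 3 or schisandrin B replicates 1 or 3, respectively (highest adjusted p 0.0913 and 0.127). Spp1 is also on the cholangiocyte and matrix lists. The summed level of the macrophage list was 2038 to 3114 CPM in normal and 1346 to 2017 CPM in schisandrin B libraries. Of 24 acute phase genes 3 fell and 0 rose (alternatives 0 to 3 higher, 0 to 8 lower, with 3 and 8 in the fit on 6 libraries, against the same 5.25%). Among them was the inhibitor heavy chain Itih4, which fell from 9986 ± 1614 to 3679 ± 139 CPM. Itih3 fell by 0.93 ± 0.19. The Itih3 call ended without normal replicate 3 or schisandrin B replicates 2 or 3 (highest adjusted p 0.0677). The complement component C3 fell by 0.89 ± 0.24. The C3 call ended without normal replicates 2 or 3 or schisandrin B replicates 1, 2 or 3, or with library totals (highest adjusted p 0.136). Of 8 neutrophil markers that passed the filter, out of 15, all 8 had a lower mean and 1 was called (alternatives 0 higher, 0 to 1 lower, against the same 5.25%). The marker called was Retnlg, which fell by 1.63 ± 0.39. The Retnlg call ended without normal replicates 1, 2 or 3 or schisandrin B replicates 1 or 2 (highest adjusted p 0.0855). Of 22 endothelial markers 3 fell, Kdr, Flt1 and Plvap, against the same 5.25%. This count was 0 with library totals and without normal replicate 2 or any 1 schisandrin B library. The Kdr call ended without normal replicates 2 or 3 or schisandrin B replicates 1, 2 or 3, or with library totals or no filter on low counts, the Flt1 call without normal replicates 1, 2 or 3 or schisandrin B replicates 1, 2 or 3, or with library totals or limma voom and the Plvap call without normal replicates 1 or 2 or schisandrin B replicates 1, 2 or 3, or with library totals (highest adjusted p 0.160, 0.147 and 0.130).

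Proliferation genes were low in both groups, and those called were lower with schisandrin B. Of 23 cell cycle genes that passed the filter, out of 30, 5 fell and 0 rose (alternatives 0 to 1 higher, 0 to 9 lower, against 5.25% of all genes in each direction), and 21 had a lower mean. Top2a, the topoisomerase of dividing cells, stood at 3.61, 3.32 and 1.46 CPM in normal and 0.478, 0.219 and 0.365 CPM in schisandrin B libraries, and fell by 2.98 ± 0.50. The kinesin Kif20a fell by 2.95 ± 0.61. Cdk1 fell by 2.76 ± 0.59, a call that ended without normal replicate 3 or schisandrin B replicates 2 or 3 (highest adjusted p 0.0649), the replication factor Mcm5 fell by 2.01 ± 0.50 and the proliferation antigen Mki67 fell by 1.92 ± 0.55. Mcm5 was not called without normal replicate 1 or schisandrin B replicates 2 or 3 and Mki67 not without normal replicates 1 or 2 or schisandrin B replicates 1, 2 or 3, or with upper-quartile factors or library totals or limma voom (highest adjusted p 0.109 and 0.153). Mki67 was named after its values were seen.

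Of the other lists, 37 ribosomal protein genes had 1 rise, Rpl6 by 0.87 ± 0.19, where 5.25% of all genes were called higher. In 16 of the 37 the schisandrin B levels were all above normal, where 19.9% of all genes were higher without overlap. With library totals 10 rose, and in the fit on 6 libraries 8 rose and 1 fell. The Rpl6 call ended without normal replicate 3 or schisandrin B replicates 1 or 3 (highest adjusted p 0.0711). Of 34 respiratory chain genes (alternatives 1 to 2 higher, 0 to 2 lower, against 5.25% of all genes in each direction) Cox7c rose, from 109 ± 6.20 to 217 ± 28.2 CPM, and Cox5a fell by 0.86 ± 0.20. The Cox5a call ended without normal replicates 1 or 3 or schisandrin B replicates 1 or 3 (highest adjusted p 0.0890). Of 19 clock genes (alternatives 1 to 5 higher, 1 to 5 lower, against the same 5.25%) Per2, a repressor of the clock, rose and the transcriptional repressors Bhlhe40 and Bhlhe41 fell. Per2 stood at 13.2, 14.6 and 15.4 CPM in normal, 6.31, 7.19 and 7.05 in fibrosis and 72.7, 53.95 and 22.8 CPM in schisandrin B libraries, wide apart among the latter. Bhlhe41 fell by 2.40 ± 0.39 and Bhlhe40 fell by 1.93 ± 0.49. The Bhlhe40 call ended without normal replicates 2 or 3 or schisandrin B replicates 1, 2 or 3, or with no filter on low counts (highest adjusted p 0.121). Of 23 iron and heme genes (alternatives 0 to 2 higher, 0 to 6 lower, against the same 5.25%) Tfrc, the transferrin receptor, rose from 14.8 ± 2.96 to 62.6 ± 21.1 CPM, without a call without normal replicates 1, 2 or 3 or schisandrin B replicates 1 or 2, or with no filter on low counts (highest adjusted p 0.122), and the heme synthesis enzyme Ppox fell by 0.66 ± 0.19. The Ppox call ended without normal replicates 1, 2 or 3 or fibrosis replicate 3 or schisandrin B replicates 1, 2 or 3, or with upper-quartile factors or library totals or no filter on low counts (highest adjusted p 0.165).

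The labelled tissue was checked against the markers of liver cells and of tissue that can be cut with it. Of 19 hepatocyte markers 2 rose, Tat and F9, the coagulation factor IX gene, and 1 fell (alternatives 0 to 3 higher, 0 to 4 lower, against 5.25% of all genes in each direction). F9 rose by 1.12 ± 0.24. The F9 call ended without normal replicate 3 or schisandrin B replicates 2 or 3 (highest adjusted p 0.0567). Albumin (Alb) stood at 196215, 153299 and 166660 CPM in normal and 129118, 144811 and 149882 CPM in schisandrin B libraries (log2 change -0.28 ± 0.28, edgeR adjusted p 0.566, named after its values were seen). The biliary markers Krt19 and Epcam were at 5.50, 3.73 and 5.59 and 12.97, 18.2 and 14.3 CPM in normal and at 6.12, 2.62 and 4.11 and 18.4, 8.68 and 13.97 CPM in schisandrin B libraries (edgeR adjusted p 0.752 and 0.779). Of 15 cholangiocyte markers that passed the filter, out of 18, 1 rose and 2 fell (alternatives 0 to 1 higher, 1 to 3 lower, against the same 5.25%). Spp1 rose and Cdh1 and Prom1 fell. Prom1, a marker of ductular and progenitor cells, fell from 25.7 ± 10.1 to 1.12 ± 0.440 CPM.

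A small set of pancreatic genes separated the groups. Cpa1, carboxypeptidase A1, stood at 239, 80.8 and 83.1 CPM in normal libraries and had 0 counts in all 6 others, at least 517-fold lower with schisandrin B. The call ended with no filter on low counts (adjusted p 0.0621). Spink1, a trypsin inhibitor that liver also makes, went the other way, from 0.0859, 0.0677 and 0.810 to 41.95, 50.3 and 107 CPM, and Cela1, an elastase, from 1.71 ± 0.994 to 5.82 ± 2.49 CPM. The Cela1 call ended without normal replicates 1 or 2 or schisandrin B replicates 2 or 3 (highest adjusted p 0.132). Only 5 of the 21 acinar genes in the table passed the filter, and the defining protease Prss1 had 0 counts in the normal and schisandrin B libraries. Ky, a muscle peptidase gene, fell from 25.8, 7.65 and 11.7 CPM to a single count, a ratio of 506 (95% counting interval 90.4 to 20010). Skeletal muscle actin (Acta1) was at 0.0859, 0.474 and 0.405 CPM in normal and 0.478, 0.583 and 3.56 CPM in schisandrin B libraries. Of the markers that passed the filter, 1 of 7 B and plasma cell markers fell (Cd22), as did 1 of 4 mast cell (Hdc) and 1 of 6 erythroid markers (Slc4a1). Over the alternatives 0 to 2 B and plasma cell, 0 to 1 mast cell and 0 to 1 erythroid markers were called lower, and 0 higher. Of all genes 5.25% were called in each direction. All 7 B and plasma cell markers had a lower mean. The Cd22 call ended without normal replicates 1, 2 or 3 or fibrosis replicate 3 or schisandrin B replicates 2 or 3, or with upper-quartile factors or library totals or a minimum mean of 5 CPM, the Hdc call without normal replicates 1, 2 or 3 or schisandrin B replicates 1, 2 or 3, or with library totals and the Slc4a1 call without schisandrin B replicate 3 (highest adjusted p 0.180, 0.147 and 0.0619). Of the 5 mesothelial markers Wt1 rose (alternatives 0 to 1 higher, 0 lower, against the same 5.25%). It rose from 1 count in normal libraries, a ratio of 18.8 (95% counting interval 2.94 to 784). The Wt1 call ended without normal replicates 1, 2 or 3 or schisandrin B replicates 1 or 3, or with limma voom (highest adjusted p 0.126). Of 4 adipocyte markers edgeR, DESeq2 and limma voom called 0, 1 had an unadjusted edgeR p under 0.05, and up to 2 were called higher in the alternatives. Whether cells or tissue other than hepatocytes had a part in these values was not tested.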

How the data were processed

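RNA of rat liver was measured in 9 libraries, 3 each labelled normal, fibrosis and schisandrin B. The authors deposited whole-number read counts per gene symbol in 1 table of 37203 rows, made from Ion Proton reads of RNA with an integrity number above 8.0, per the labels. The labels give the organism as mouse and, per the submitters' processing notes, the build GRCm38, whereas the strain is Wistar and the table holds rat gene symbols. No aligner, counter, annotation or strand setting is named in the sources used here, so antisense or overlapping genes and paralogs that share reads cannot be separated. Rat reference sequence was not used here, and no sequence or position is printed.

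Counts of all 9 libraries were filtered with filterByExpr, scaled by TMM and fitted with edgeR 4.0.16 (R 4.3.3; 1 mean per group, robust quasi-likelihood F test, Benjamini-Hochberg over 14581 genes, threshold 0.05). Standard errors came from the fold change and its F value, 95% intervals from the fit's degrees of freedom. Library totals were 10320299 to 16255167 counts, and a count of 0 allows up to 3 counts, or 0.176 to 0.287 CPM, which covers counting error only. The script was tested on simulated data. With 3 libraries against 3, an exact permutation test of a single gene cannot go below 0.1 and was not used.

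Named genes were the 12 largest rises and 12 largest falls among called genes whose groups did not overlap, with a formal symbol and 5 CPM or more as the higher mean. The same numbers were taken among genes also called in the same direction against fibrosis libraries. They were taken again among genes outside the sex lists, without those called in the same direction in fibrosis against normal libraries. Up to 4 members of each of 44 lists by adjusted p and a few genes always reported were added. Some genes that the rule names are not reported here. The comparison, its members, the lists and the rule were chosen with earlier results of these data known. Alternatives were other scaling factors, filters, DESeq2 1.42.0, limma voom (limma 3.58.1), the 6 libraries alone, the 20 most counted genes left out, and each library left out in turn.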

Additional observations from a re-analysis of the deposited data

How the results depend on the processing

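Of 1531 calls (766 higher, 765 lower), the fit on 6 libraries gave 2951 (1467 and 1484), DESeq2 2190 (1088 and 1102) and library totals 1750 (1231 and 519). With library totals the groups did not overlap in 4109 genes higher and 1783 lower, against 2900 and 2737. A threshold of 0.01 left 547 (263 and 284), and at least 2-fold 1014 (544 and 470). Leaving out 1 library gave 702 to 2814 calls, 351 to 1386 higher and 351 to 1428 lower. With the spread shared by 9 libraries, leaving out fibrosis replicate 1 raised the count and leaving out a normal or schisandrin B library lowered it, the latter with fewer samples in the groups compared. No paired analysis was possible because the labels give no replicate number that ties libraries of different groups to one animal, litter or day. No named gene changed direction where it was called. The changes of 9 named genes without a call, Cpt1a and Nfe2l2 among them, and the medians of 19 of the 44 lists had either sign. Calls in low genes rest on few counts, and no batch is given in the labels.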
